A study of Mus musculus with 12 samples.

Results

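The 9 genes described here encode 7 S100 proteins (S100a1, S100a4, S100a6, S100a10, S100a11, S100a13 and S100a16) and 2 annexins (Anxa1 and Anxa2), out of 52336 genes in the deposited table. They were picked by symbol from these families, leaving out S100a8 and S100a9 of neutrophils, and they were chosen from genes whose levels in infarcted and sham hearts were already known, so the differences between those groups are given as a description. All 9 had a row in the table. A mean normalized read count of at least 10 over the libraries was reached by 8 of them, which were tested together with the other genes that passed (14996 in all), and S100a4 did not reach it.

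S100 proteins are small calcium sensors of the EF-hand type that act mostly as dimers, changing shape on binding calcium and then docking onto partner proteins. Annexins bind membrane phospholipids in a calcium-dependent way, and several S100 dimers join a pair of annexin molecules, so that membranes are bridged or patched, S100a10 with Anxa2 and S100a11 with Anxa1 being the classic pairs. In heart muscle S100a1 is the best known member, since it binds the calcium release channel Ryr2 and the calcium pump Atp2a2, while S100a6, S100a11 and the annexins are also made in quantity by fibroblasts, mesothelium and blood cells.

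Transcripts had been measured by RNA sequencing of cardiomyocytes from wild-type mouse pups, in 12 libraries, 3 in each of 4 groups called NAC MI, NAC sham, saline MI and saline sham. NAC pups had received a high dose of N-acetylcysteine, a thiol antioxidant and cysteine donor, in HEPES-buffered saline (25 mM HEPES and 140 mM NaCl) each day from postnatal day 0 to day 1, and saline pups had received saline. On day 2 the left anterior descending coronary artery was occluded to cause myocardial infarction (MI) or a sham procedure was done, and on day 3 cells were isolated from digested, pooled ventricles with a neonatal cardiomyocyte kit. Strain and sex are not given in the sources used here, and separate litters are not stated, so that p-values measure the spread between these pools. In such bulk samples, fewer cells of a type and less RNA per cell cannot be told apart.

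Depth was 14353842 to 25118341 reads per library. The 14 cardiomyocyte markers were detected, with a summed level of 257080 to 720035 normalized reads, the lowest in NAC sham 2. Markers of other cell types were present too, and no marker on their lists was at 0 in every library. The sum of 20 macrophage and monocyte markers was 14426, 1507 and 12270 in NAC MI against 2209, 24832 and 1777 in NAC sham. After saline it was 15193, 11158 and 16417 in MI against 1448, 1877 and 1241 in sham. Libraries were also weighted by their fit to their group. Saline sham 3, NAC sham 2 and NAC MI 2 had the lowest quality weights (0.268, 0.250 and 0.451), and results are given below with and without them where they differ. Because they were picked by their fit in these same data, leaving them out tends to lower the spread within groups. Calls made without them are therefore a description and not a test. Title prefixes of unstated meaning (R207, R219, R230 and R235) never spanned both surgeries, and an effect of surgery cannot be told apart from one of the prefix.

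The S100 members lie together on chromosome 3 (GRCm38). S100a1 (90511034 to 90514392, minus strand) and S100a13 (90514435 to 90524581, plus strand) start head to head with 42 bases between them. S100a16 (90537254 to 90543151), S100a4 (90603771 to 90606045) and S100a6 (90612882 to 90624181) follow within 101.8 kb of the start of S100a1, and S100a11 (93520488 to 93526287) and S100a10 (93555080 to 93564643) lie 3009.5 and 3044.0 kb from it. Anxa2 is on chromosome 9 (69453620 to 69491795, plus strand) and Anxa1 on chromosome 19 (20373428 to 20390944, minus strand). Promoter sequence from RefSeq (GRCm38.p6), ending at the base before the annotated gene start, was searched on both strands for TGANTCA (the AP-1 site), GGAATG (the core bound by TEAD factors), GGGCGG (the GC box) and TATAAA (the TATA box). A RefSeq window was found for 8 of the 9 members, and not for S100a10. The Anxa1 window lies inside the annotated gene, so that sequence before the gene start was read for 7 members.

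Shown first is S100a6, the member with the largest difference between MI and sham, whose 238 bases (chr3:90612644-90612881, plus strand) held none of the 4 motifs. Then come S100a11 (chr3:93520246-93520487, plus strand) and Anxa2 (chr9:69453433-69453619, plus strand), whose windows held 2 and 1 AP-1 matches, in capitals, with no GC box overlapping them. The window of a second start of S100a16, which lies inside the annotated gene, also held 1 AP-1 match. The window before the S100a16 gene start held 0. Last is the stretch shared by S100a13 and S100a1 (chr3:90514393-90514434, plus strand, read towards S100a13).
S100a6: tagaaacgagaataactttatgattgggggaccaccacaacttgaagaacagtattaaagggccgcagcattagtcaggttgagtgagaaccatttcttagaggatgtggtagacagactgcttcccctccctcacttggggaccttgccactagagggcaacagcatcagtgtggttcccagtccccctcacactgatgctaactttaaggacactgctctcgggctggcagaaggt
S100a11: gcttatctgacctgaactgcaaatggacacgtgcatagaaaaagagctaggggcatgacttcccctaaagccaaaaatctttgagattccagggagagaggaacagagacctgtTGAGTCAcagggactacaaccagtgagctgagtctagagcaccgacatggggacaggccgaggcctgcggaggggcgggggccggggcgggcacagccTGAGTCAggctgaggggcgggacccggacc
Anxa2: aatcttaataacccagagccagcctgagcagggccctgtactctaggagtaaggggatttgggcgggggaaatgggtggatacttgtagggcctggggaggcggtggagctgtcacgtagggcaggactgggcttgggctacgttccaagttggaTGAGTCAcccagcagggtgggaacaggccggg
S100a13 and S100a1: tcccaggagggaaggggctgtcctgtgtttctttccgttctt
Among 32851 RefSeq promoter windows of 250 bases, 6.749% held TGANTCA, 12.642% GGAATG, 32.742% GGGCGG and 12.368% TATAAA. The stretches printed here are shorter, at 238 (S100a6), 242 (S100a11), 187 (Anxa2) and 42 bases, so the shares are not like for like. Of the other motifs, S100a11 held 3 GC boxes, Anxa2 and the second S100a16 window 1 each, and S100a4 1 TATA box. These matches are letters in a window and were not tied to any bound factor here.

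Levels can be compared between genes only per length of annotated exon. On that scale S100a11 was the most abundant member, with 6250 ± 2160 normalized reads per kb (mean ± SD over 12 libraries), and it stood above the next gene in all 12. S100a1 had 3133 ± 1184, S100a10 1969 ± 618, Anxa2 1819 ± 420 and S100a16 1263 ± 553 normalized reads per kb. S100a6 (802 ± 610), S100a13 (640.1 ± 311) and Anxa1 (573, with a range of 270 to 929) closed the list of detected members. Neighbours in this order were not all separate, since S100a10 exceeded Anxa2 in 8 of 12 libraries, S100a6 exceeded S100a13 in 6 and S100a13 exceeded Anxa1 in 7. The 6 and 6 split of S100a6 follows surgery, as the values by library show.

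**Figure D1:**
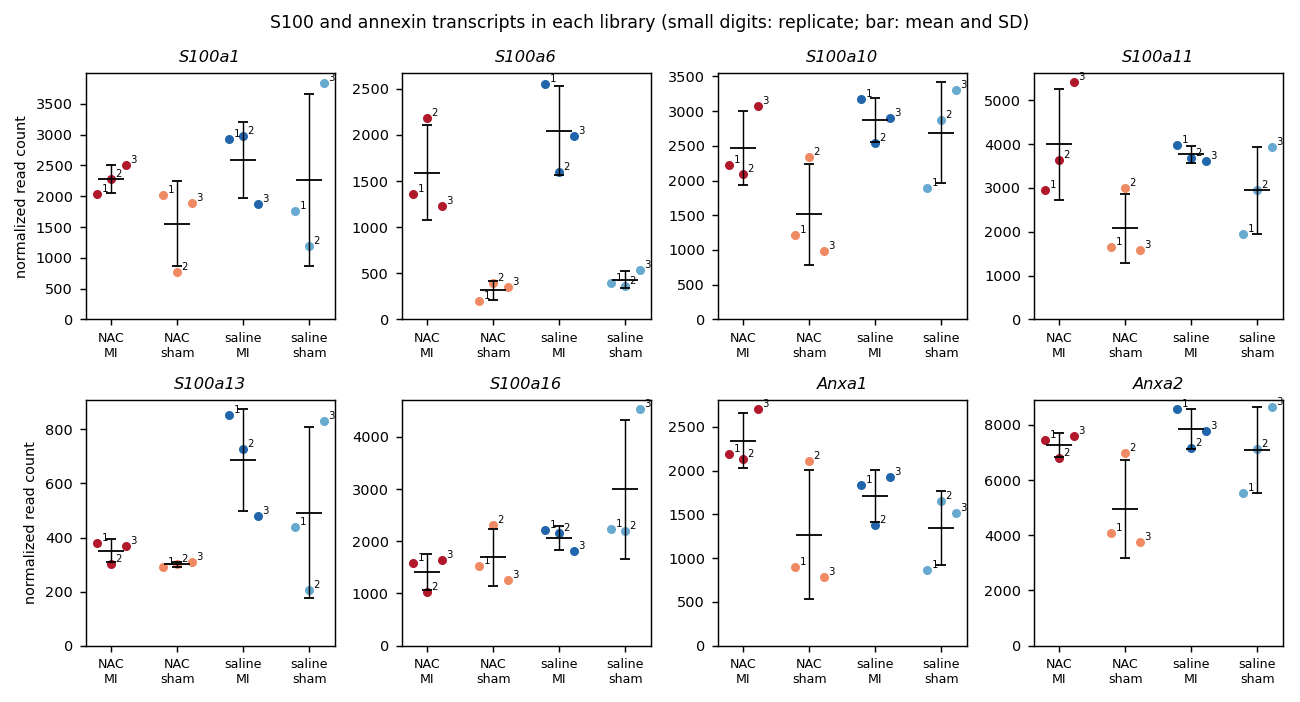
Normalized read count (vertical axis, starting at 0) of the 8 tested members in each library, with small digits for the replicate and bars for the group mean and SD (n = 3). In the S100a6 panel all 6 MI libraries (1231 to 2552) lie above all 6 sham libraries (201 to 533), and in the other panels the MI and sham libraries overlap.

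S100a6, also called calcyclin, is a small calcium-binding protein of dividing and migrating cells. It had normalized read counts of 1359, 2184 and 1231 in NAC MI, against 201, 391 and 352 in NAC sham. After saline it had 2552, 1600.0 and 1990.0 in MI, against 394, 363 and 533 in sham. Each MI library was above every sham library under both treatments, and the 6 MI libraries spanned 1231 to 2552 with a median of 1795 while the 6 sham libraries spanned 201 to 533 with a median of 377. The group means were 1591 ± 517 in NAC MI against 315 ± 100.4 in NAC sham, and 2047 ± 478 in saline MI against 430.0 ± 90.6 in saline sham (SD, n = 3 each). On the log2(value + 1) scale MI exceeded sham by 2.34 after NAC (SE 0.29, 95% interval 1.71 to 2.98) and by 2.24 after saline (SE 0.29, 1.61 to 2.87), 5.08-fold and 4.73-fold.

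S100a6 was the single member called in each of the MI comparisons at an adjusted p under 0.05 in limma. After NAC that was 1 of 8 members, beside 0.127% of all genes tested. After saline it was 1 of 8, beside 0.86%, and averaged over both treatments 1 of 8, beside 2.74%. The counts over all genes moved with single libraries. After NAC it was 8 genes without NAC sham 1 and 67 without NAC sham 2, in place of 19. After saline it was 15 without saline MI 1, in place of 129, and averaged over both treatments 133 without saline MI 1 and 1563 without saline sham 3, in place of 411. S100a6 was called in each of these. All 6 MI libraries stood above all 6 sham libraries for 1 member, S100a6, and for 1.45% of all genes. Within a treatment all 3 MI libraries stood above all 3 sham libraries for 3 members after NAC (S100a1, S100a6 and Anxa1), beside 9.08% of all genes, and for 1 after saline (S100a6), beside 10.4%. Because the genes were assembled with these comparisons known, the counts are given without a test.

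S100a6 was measured against markers of the other cells in the preparations. NAC MI 2 had the macrophage marker sum of a sham library (1507) and a neutrophil sum of 1326, against 6729 and 5879 in NAC MI 1 and 3, and it had the highest S100a6 level of its group. NAC sham 2 had the highest macrophage sum of all 12 libraries (24832) and an S100a6 level of 391, also the highest of its group. The sum of 14 epicardial and mesothelial markers was 6401, 25972 and 6828 in NAC MI against 2840, 3795 and 5968 in NAC sham, and after saline 6676, 5960.3 and 6025 in MI against 3326, 4046 and 3219 in sham. The MI and sham libraries met at 1 library, saline MI 2, and were otherwise apart. The sum of 14 fibroblast markers was also higher in MI, at 191002 to 283521 in NAC MI against 131094 to 193678 in NAC sham and 210490 to 313975 in saline MI against 126620 to 188620 in saline sham. The mean of a marker was higher in MI than in sham for 13 of 15 neutrophil, 17 of 20 macrophage, 14 of 14 epicardial and 13 of 14 fibroblast markers after NAC. After saline it was higher for 15, 20, 12 and 14 of these. The part of these cells in the S100a6 level was not tested.

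**Figure D2:**
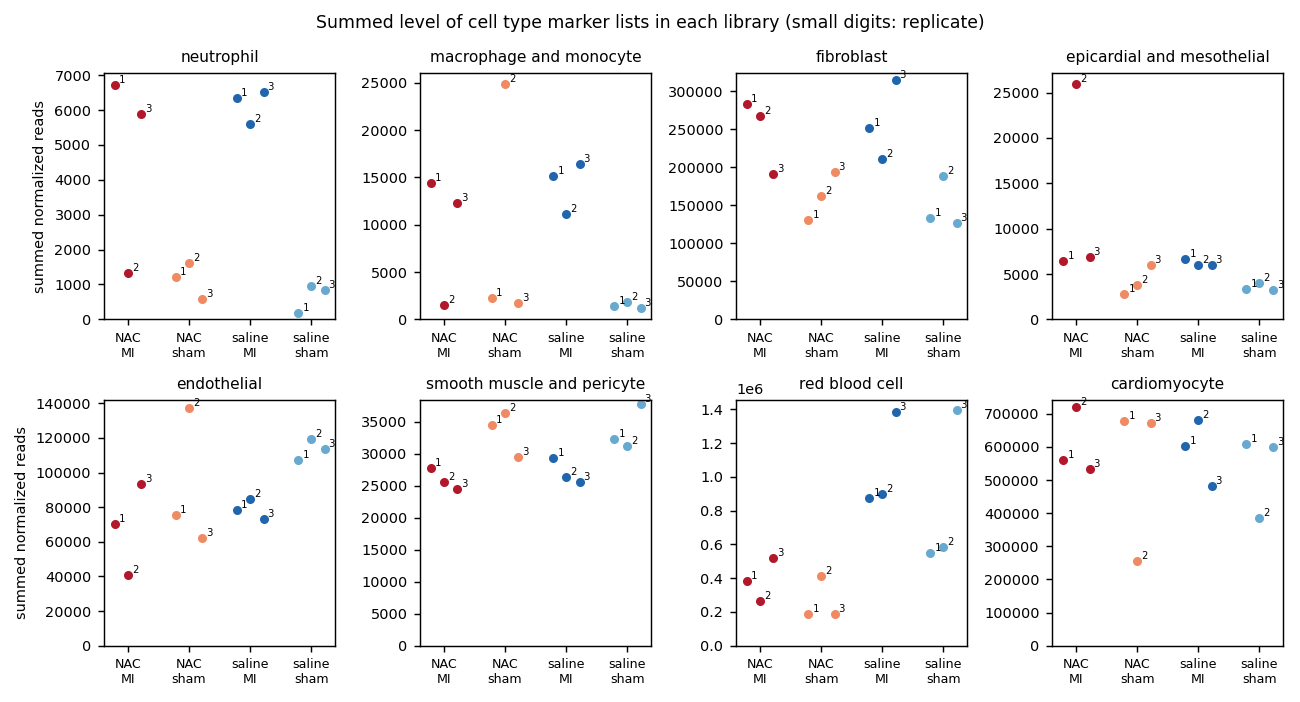
Summed level of 8 cell type marker lists in each library, in normalized reads (vertical axis, starting at 0), with small digits for the replicate. NAC MI 2 lies with the sham libraries for neutrophil and macrophage markers and far above all others for epicardial and mesothelial markers, and NAC sham 2 has the highest macrophage and the lowest cardiomyocyte sum.

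S100a10 and Anxa2 form a complex, an S100a10 dimer flanked by Anxa2 chains, at the cell surface and cortex, where it collects plasminogen and its activator. S100a10 had 2231, 2088 and 3079 normalized reads in NAC MI against 1215, 2342 and 988 in NAC sham, and 3175, 2537 and 2908 in saline MI against 1893, 2868 and 3309.5 in saline sham. Anxa2 had 7458, 6791 and 7587 in NAC MI against 4072, 6981 and 3766 in NAC sham, and 8587, 7164 and 7777 in saline MI against 5528, 7107 and 8631 in saline sham. In both genes NAC sham 1 and 3 were the lowest of all 12 libraries, and NAC sham 2 reached the level of MI. MI minus sham was 0.78 for S100a10 and 0.61 for Anxa2 after NAC, and 0.13 and 0.17 after saline (log2). Across the 12 libraries their log2 values ran together with a Pearson r of 0.971, the highest of the 28 pairs of members, over points that share library depth and cell make-up.

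S100a11, or calgizzarin, and Anxa1, a glucocorticoid-induced annexin that is also a ligand of formyl peptide receptors, form the other known pair. S100a11 had 2950.4, 3634 and 5409 normalized reads in NAC MI against 1656, 2989 and 1577 in NAC sham, and 3979, 3690 and 3617 in saline MI against 1943, 2948 and 3933 in saline sham. Anxa1 had 2191, 2137 and 2705 in NAC MI against 903, 2115 and 785 in NAC sham, and 1836, 1376 and 1927 in saline MI against 863, 1658 and 1521 in saline sham. All 3 NAC MI libraries exceeded all 3 NAC sham libraries for Anxa1, with NAC MI 2 (2137) and NAC sham 2 (2115) the closest, and the S100a11 groups overlapped through NAC sham 2. MI minus sham was 0.96 for S100a11 and 1.03 for Anxa1 after NAC, and 0.41 and 0.39 after saline (log2). The pair had a Pearson r of 0.859 over the 12 libraries.

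S100a1 and S100a13 share the 42-base stretch printed above and point away from each other. S100a1 had 2041, 2288 and 2507 normalized reads in NAC MI against 2016, 769 and 1885 in NAC sham, and 2923, 2977 and 1882 in saline MI against 1759, 1200 and 3844 in saline sham. The lowest value, 769, belonged to NAC sham 2, which also had the lowest cardiomyocyte marker sum (257080). S100a13, which takes part in the export of growth factors that lack a signal peptide, had 381, 302 and 369 in NAC MI against 292, 301 and 310.0 in NAC sham, and 852, 726 and 481 in saline MI against 439, 205 and 832 in saline sham. MI minus sham was 0.67 for S100a1 and 0.21 for S100a13 after NAC, and 0.34 and 0.66 after saline (log2). The groups overlapped except for S100a1 after NAC, where they nearly met. Without saline sham 3, NAC sham 2 and NAC MI 2 the differences after NAC were 0.21 for S100a1 and 0.315 for S100a13. After saline they were then 0.81 (limma adjusted p = 0.041) and 1.15 (limma adjusted p = 0.0324). Both genes were called there, beside 1807 of all genes. The libraries left out were picked by their fit in these same data, so these calls are a description. The Pearson r of S100a1 and S100a13 was 0.725 over the 12 libraries.

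S100a16, a widely expressed S100 protein, was the one tested member with a lower mean in MI under both treatments. It had 1585, 1021 and 1642 normalized reads in NAC MI against 1518, 2311 and 1252 in NAC sham, and 2218, 2164 and 1805 in saline MI against 2245, 2204 and 4540.0 in saline sham. The groups overlapped under both treatments, and 1 library, saline sham 3, stood far above the rest. MI minus sham was -0.24 after NAC and -0.46 after saline (log2), and without saline sham 3, NAC sham 2 and NAC MI 2 the difference averaged over both treatments was 0.06. Without NAC sham 2 alone the difference after NAC was 0.007.

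S100a4, a marker of migrating fibroblasts and macrophages, was listed at 0 in 11 libraries and had 4 reads in saline MI 1. In the annotation 302 of its 584 exon bases (51.7%) also belong to Gm42674 on the same strand, which was itself at 0. Reads that fall in both genes can be left out of both by a counter, but the counter used is not known. The rest of the S100a4 exon bases are not shared with that gene. The cause of the 0 values was not tested, and the level of S100a4 is not read from these data. Anxa2 shares 98 of 3731 exon bases with the antisense gene Gm16144, whose mean was 9.21 normalized reads.

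**Figure D3:**
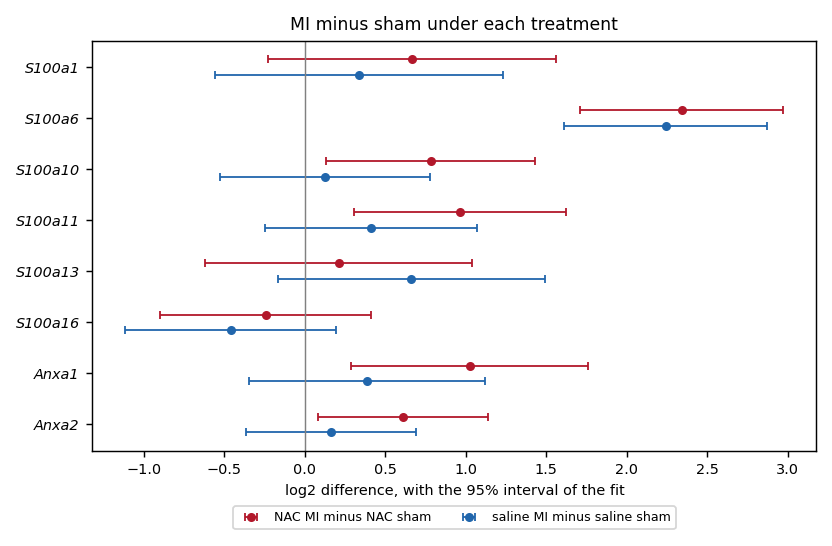
MI minus sham of each tested member on the log2 scale (horizontal axis), after NAC (red) and after saline (blue), with the 95% interval of the fit over 12 libraries. The S100a6 intervals lie from 1.61 to 2.98, and S100a16 is the one gene with both estimates below 0.

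Of the 8 tested members 7 had a log2 difference above 0 in each of the MI comparisons, beside 49.8% of all genes after NAC, 49.1% after saline and 49.7% averaged over both. The median over the members was 0.72 after NAC and 0.36 after saline, beside a median of -0.002 and -0.007 over all genes tested. Apart from S100a6 the values turned on single libraries. After saline the log2 difference was -0.11 for S100a10 and -0.002 for Anxa2 without saline sham 1, and -0.03 for S100a1 without saline sham 2, so the count above 0 does not hold without either. Without saline sham 3, NAC sham 2 and NAC MI 2, which leaves 9 libraries, limma called 5 members in MI against sham averaged over both treatments, beside 14.6% of all genes. These were S100a6 (2.34), Anxa1 (1.02), S100a11 (0.98), S100a10 (0.78) and Anxa2 (0.63), with S100a13 (0.73) and S100a1 (0.51) above 0 and not called. In the same comparison limma called 2 members without saline sham 3 alone (S100a6 and S100a11), beside 10.4% of all genes, and 3 without NAC sham 2 alone (S100a6, Anxa1 and S100a11), beside 4.08%.

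The effect of NAC on these genes was tested in the same limma fit over 14996 genes. Among sham hearts all 8 tested members had a lower mean in NAC than in saline, by 0.18 (Anxa1) to 0.89 (S100a10) on the log2 scale, where 48.2% of all genes were above 0. No member was called, nor was any other gene (0.0%). S100a10 averaged 1515 ± 725 in NAC sham and 2690 ± 725 in saline sham (SD, n = 3 each), with a log2 difference of -0.89 (95% interval -1.54 to -0.24, limma adjusted p = 0.77). At an unadjusted p under 0.05 the limma fit held 3 members (S100a10, S100a16 and Anxa2) and 884 of all genes (5.89%), while DESeq2 called 47 genes (0.313%) and edgeR 0, with no member among them.

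Part of this direction rested on saline sham 3 and NAC sham 3. Without saline sham 3 the difference was 0.003 for S100a13 and -0.02 for S100a1, and without NAC sham 3 it was 0.09 for Anxa1. Without saline sham 3, NAC sham 2 and NAC MI 2 it was 0.42 for S100a1 and 0.003 for S100a13. The other members then ran from -1.09 (S100a10) to -0.505 (S100a6). Beside these values, 19 of 20 macrophage markers had a log2 difference above 0 between NAC sham and saline sham (median 1.69), and 0 of 7 tested red blood cell markers did (median -1.23). Macrophage sums were 24832 in NAC sham 2 and 2209 and 1777 in NAC sham 1 and 3. In saline sham they were 1241 to 1877. The part of these cells in the differences was not tested.

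The sham difference of S100a10 rested on which libraries were compared. Without NAC sham 2 it was -1.26 and was called (limma adjusted p = 0.0494), beside 0.533% of all genes. That library was picked by its fit in these same data, so the call is a description. Within the prefix R207, which holds NAC sham 2 and saline sham 1 and 2, the log2 difference was 0.01 for S100a10, 0.06 for S100a16, 0.16 for Anxa2, 0.32 for S100a11 and 0.82 for Anxa1, so the lower means in NAC were not seen there. S100a1 was lower within R207 too, by a log2 difference of -0.92. NAC sham 1 and 3 carried no prefix, and their difference from saline and the prefix cannot be told apart.

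After MI, S100a13 and S100a16 were lower and Anxa1 higher in all 3 NAC libraries than in all 3 saline libraries. S100a13 averaged 351 ± 42.6 in NAC MI and 687 ± 189 in saline MI (SD, n = 3 each), a log2 difference of -0.94 (SE 0.38, 95% interval -1.77 to -0.11), and was not called (limma adjusted p = 0.529). S100a16 averaged 1416 ± 343 in NAC MI and 2062 ± 224 in saline MI, a difference of -0.57 (-1.22 to 0.09, limma adjusted p = 0.562). Anxa1 averaged 2344 ± 313 in NAC MI and 1713 ± 295 in saline MI, a difference of 0.46 (-0.28 to 1.19, limma adjusted p = 0.635). Groups apart in this way were found for 8.84% (higher) and 11.5% (lower) of all genes, beside 1 and 2 of the 8 members.

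Within the prefixes the sign of these 3 genes is fixed, since their groups do not overlap, and only the sizes add to the pooled values. NAC MI minus saline MI was -1.09 in R230 and -0.50 in R235 for S100a13, -0.42 and -0.51 for S100a16, and 0.77 and 0.17 for Anxa1. S100a6 was also below 0 in both, by -0.71 and -0.21, while S100a1, S100a10 and S100a11 differed in sign between the prefixes. With the prefix as a block limma called 0 members. No gene was called among the MI libraries in the main test (0.0%), where 1382 genes (9.22%) and 1 member, S100a13, had an unadjusted p under 0.05, and DESeq2 called 11 genes (0.0734%) and edgeR 0, with no member among them. Beside these values, the 8 red blood cell markers summed to 265899 to 521621 normalized reads in NAC MI against 877313 to 1382746 in saline MI, and 0 of 20 macrophage markers had a higher mean in NAC MI. The macrophage sum was low in NAC MI 2 (1507), while NAC MI 1 and 3 had 14426 and 12270. Saline MI libraries had 11158 to 16417. The part of these cells in the differences was not tested.

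Averaged over both surgeries, S100a16 had the smallest p of the members, with a log2 difference of -0.68 between NAC and saline (95% interval -1.14 to -0.21, limma adjusted p = 0.218). Its level was 1021 to 2311 in the 6 NAC libraries, median 1552, against 1805 to 4540.0 in the 6 saline libraries, median 2211. In 5 of the 6 NAC libraries it was below every saline library, the exception being NAC sham 2. S100a13 kept within 292 to 381 in all 6 NAC libraries, against 205 to 852 in the 6 saline libraries, and differed by -0.71 (-1.30 to -0.12, limma adjusted p = 0.263). Without saline sham 3 the S100a13 difference was -0.47 (limma adjusted p = 0.403), and without saline sham 3, NAC sham 2 and NAC MI 2 it was -0.42 (adjusted p = 0.382). S100a10 differed by -0.56 (-1.02 to -0.10, limma adjusted p = 0.263) and S100a6 by -0.43 (-0.88 to 0.01, limma adjusted p = 0.33).

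Anxa1 was the one member with a mean difference above 0 averaged over surgeries, at 0.14 (-0.38 to 0.66, limma adjusted p = 0.804), where 47.6% of all genes were above 0, and it was -0.08 without NAC sham 2. None of the 8 members was called by limma, as none of all genes was (0.0%), and none by DESeq2, which called 439 genes (2.93%), or by edgeR, which called 0. An unadjusted p under 0.05 was found in limma for 3 members and 15.5% of all genes. Without saline sham 3, NAC sham 2 and NAC MI 2, limma called S100a16 (-0.52, adjusted p = 0.0433), beside 2.19% of all genes. Without NAC sham 2 alone it called S100a10 (-0.75, adjusted p = 0.0473), beside 1.67%. The libraries left out were picked by their fit in these same data, so these calls are no support for an effect of NAC.

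**Figure D4:**
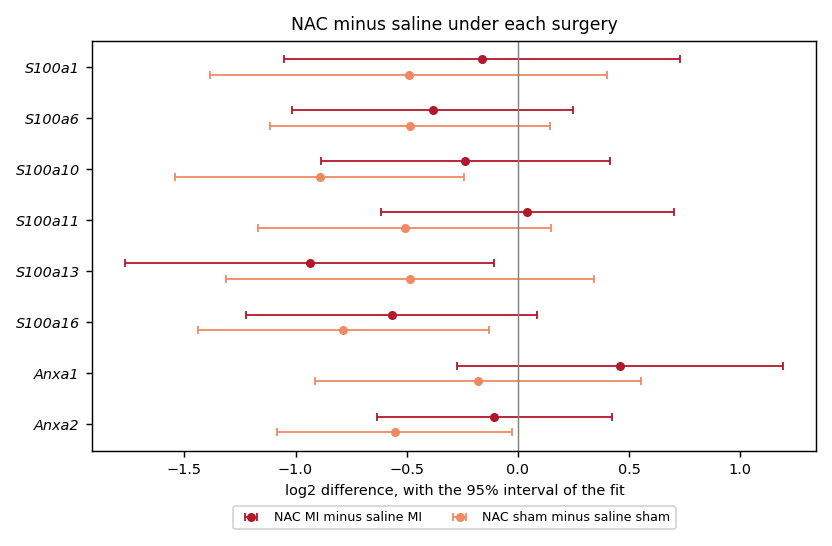
NAC minus saline of each tested member on the log2 scale (horizontal axis), after MI (dark red) and after sham surgery (orange), with the 95% interval of the fit over 12 libraries. All 8 sham estimates are below 0, and after MI Anxa1 (0.46) and S100a11 (0.04) are above 0 while S100a13 (-0.94) is farthest below.

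The difference between the MI effects after NAC and after saline was tested as an interaction. For S100a6 it was 0.10 on the log2 scale (95% interval -0.79 to 0.99, limma adjusted p = 1). For the others it ran from -0.45 (S100a13) to 0.66 (S100a10, interval -0.26 to 1.57), each with a limma adjusted p of 1. These values turned on single libraries. Without NAC sham 2 the interaction was 1.02 for S100a10 and 1.08 for Anxa1, against 0.64 for Anxa1 with all libraries. Without saline sham 3 it was -0.94 for S100a13, and without saline sham 2 it was 0.07. For S100a6 it lay between -0.19 and 0.29 with 1 library left out. No member and no other gene was called (0.0%). In limma 0 members and 305 genes (2.03%) had an unadjusted p under 0.05, and DESeq2 called 1 gene (0.00667%) and edgeR 0. The larger MI values after NAC than after saline for S100a10, S100a11, Anxa1 and Anxa2 are thus not shown to differ between the treatments.

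The rest of the families was described from lists chosen with earlier results of these data known. Of 11 other S100 genes, 3 were tested, and S100a8 and S100a9, the calprotectin subunits that fill neutrophils, were called higher in MI averaged over both treatments in limma (log2 2.96, adjusted p = 0.0163, and 2.87, adjusted p = 0.0104). S100a9 had 1900.3, 297 and 1385 normalized reads in NAC MI against 288, 176 and 142 in NAC sham, and 1564, 1417 and 1709 in saline MI against 37.7, 237 and 284 in saline sham. All 6 MI libraries were above all 6 sham libraries for both genes, NAC MI 2 only just. The call of S100a8 was lost without saline MI 1 (2.92, limma adjusted p = 0.0545). S100a2, S100a3, S100a5, S100a7a and S100a14, which lie among the members on chromosome 3, were at 0 or reached at most 8.91 normalized reads, so the locus holds detected and undetected genes side by side.

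**Figure D5:**
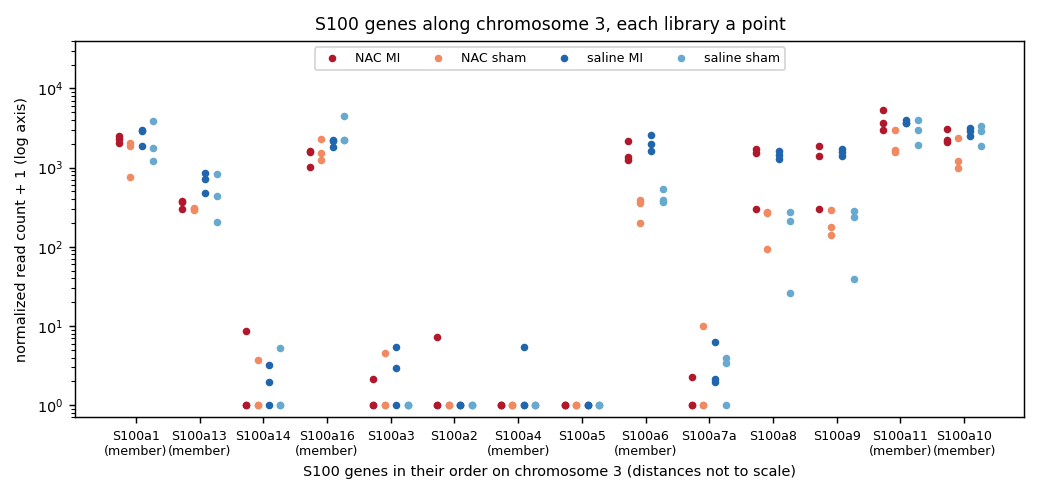
Normalized read count + 1 (vertical log axis) of S100 genes in their order along chromosome 3 (distances not to scale), each point a library. Detected members, the neutrophil genes S100a8 and S100a9, and genes at or near 0 alternate, and S100a6, S100a8 and S100a9 are the genes whose 6 MI libraries all lie above the 6 sham libraries.

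Of 10 other annexins, 8 were tested and 1 was called, Anxa8, an annexin of epithelia. It had 83.5, 652 and 129 normalized reads in NAC MI against 15.2, 13.1 and 31.2 in NAC sham, and 123, 76.5 and 69.2 in saline MI against 15.2, 7.94 and 11.9 in saline sham. All 6 MI libraries exceeded all 6 sham libraries, with a log2 difference of 3.07 averaged over both treatments (SE 0.45, limma adjusted p = 0.00322). NAC MI 2, the highest, is the library with the highest epicardial and mesothelial sum. Without it the difference was 2.63 (limma adjusted p = 0.00103). The annexins Anxa3, Anxa5, Anxa6, Anxa7 and Anxa11 had MI differences between -0.06 and 0.23 on the log2 scale and Anxa4 one of 0.54, and none of these was called (limma adjusted p of Anxa4 = 0.104).

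Among 7 tested genes of plasmin generation, the process that S100a10 and Anxa2 serve, 1 was called higher in MI averaged over both treatments. Serpinb2, an inhibitor of plasminogen activators, had 15.6 to 110 normalized reads in the 6 MI libraries and 0 to 14.01 in the 6 sham libraries (limma adjusted p = 0.00359), and its log2 difference of 4.36 depends on the pseudocount. Of 15 tested genes of membrane repair, 1 was called, Myof, which encodes the ferlin myoferlin, at 1112 ± 87.1 in NAC MI against 541 ± 190 in NAC sham and 908 ± 200 in saline MI against 404 ± 188 in saline sham (log2 1.17, limma adjusted p = 0.0153). The call of Myof was lost without saline MI 1 (1.18, limma adjusted p = 0.0504).

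In limma over all 12 libraries no gene was called in MI against sham among 8 tested receptors of S100 proteins and annexins. The same held for 10 listed partners of S100a1, which are calcium handling genes together with Synm and Atp5f1a. The most abundant receptors were Cd36 (MI minus sham -0.81, limma adjusted p = 0.108), Bsg (0.33, adjusted p = 0.38) and Tlr4 (-0.15, adjusted p = 0.758). Counts for MI averaged were higher under other settings. Without saline sham 3 they were 3 of 7 plasmin and 3 of 15 repair genes, beside 10.4% of all genes. Without NAC sham 2 they were 2 of 8 receptors, beside 4.08%. With quality weights they were 5 receptors, 2 S100a1 partners, 5 plasmin genes, 8 repair genes and 4 other annexins, beside 27.9%. Without saline sham 3, NAC sham 2 and NAC MI 2 they were 3, 2, 5, 5 and 3 in that order, beside 14.6%. DESeq2 called 1, 0, 3, 3 and 1, beside 8.16%. Of the calcium handling genes, the pump Atp2a2 differed by -0.09 and the channel Ryr2 by -0.25 between MI and sham (limma adjusted p = 0.909 and 0.701). Between NAC and saline the 10 listed S100a1 partners had a median log2 difference of 1.26. Atp2a2 differed by 1.30 and Ryr2 by 1.26 (limma adjusted p = 0.178 and 0.181), while S100a1 differed by -0.33 (adjusted p = 0.602). Atp5f1a, with the highest mean of the list, averaged 39126 in the NAC libraries and 40593 in the saline libraries. Ryr2 had 14176 and 13350 in NAC sham 1 and 3, which carried no prefix. Within R207 it had 4116 in NAC sham 2 against 5152 and 4614 in saline sham 1 and 2. Atp2a2 had 73543 and 66008 in NAC sham 1 and 3, and within R207 20164 against 14630 and 17947. In limma over all 12 libraries no gene of these lists was called in a NAC comparison or in the interaction, and these lists were not counted under other settings there.

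Genes with the most like pattern over the 12 libraries were ranked by Pearson r of log2 values among 13366 named genes, as a description of libraries that share depth and cell make-up. S100a6 was closest to Cgref1 (0.972), Arhgdig (0.968) and Ptprn (0.957). S100a1 was closest to the respiratory chain genes Ndufc1 (0.982) and Ndufs3 (0.982) and the mitochondrial Chchd3 (0.981), and S100a13 to Psmb10 (0.988), a subunit of the immunoproteasome. S100a10 and Anxa2 had Tnfrsf1a, a receptor of tumour necrosis factor, among their 3 nearest (0.939 and 0.933). S100a11 was near Uchl1 (0.939) and Anxa4 (0.934), S100a16 near Mapk3 (0.963), and Anxa1 near Serp1 (0.963), a protein of the endoplasmic reticulum membrane. For the mean of the 8 members the 10 nearest genes began with Sec13 (0.973), Txn1 (0.955) and Rtcb (0.955) and included the annexins Anxa5 (0.937) and Anxa7 (0.936).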

How the data were processed

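The deposited table held 1 value per gene and library, a signal that the authors had made by dividing gene read counts by 1 size factor per library. Alignment with STAR 2.7.10a to mm10 and the use of DESeq2 1.44.0 are per the submitters' processing notes, and the gene counter, annotation release and strand setting are not given in the sources used here. Reads were recovered by multiplying with the size factor (100% of values whole within 0.01). Identifiers were matched to the GENCODE M21 annotation (52079 of 52336), and 21590 genes were at 0 in every library.

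Values were analysed as log2(value + 1) for 14996 genes with a mean of at least 10, with limma 3.58.1 in R 4.3.3 (trended prior variance, 4 group means over 12 libraries, 8 residual degrees of freedom), two-sided, with Benjamini-Hochberg adjustment over all these genes and calls at 0.05. The fit was tested on simulated data. Replicate numbers follow accession order and pair nothing. The members and lists were chosen with earlier results of these data known. All 9 members are named; of each other list, the genes called, or otherwise the 3 most abundant. Lists of 189 symbols matched 188, and 1 gene of the plasmin generation list is not reported or counted here. Alternatives were other pseudocounts (0.5 and 5), filters (none and 50), TMM factors, edgeR 4.0.16 and DESeq2 1.42.0 on the recovered reads, library quality weights, and leaving out libraries. With 3 libraries a side, no exact permutation p lies below 0.1. No column of the table was left unused.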

Additional observations from a re-analysis of the deposited data

How the results depend on the processing

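The members called kept their number under both other pseudocounts, both other filters, TMM factors, edgeR and DESeq2 in all 7 comparisons (1, 1, 1 for MI after saline, MI after NAC and MI averaged, and 0 for the 3 NAC comparisons and the interaction). Library quality weights, which give little weight to libraries far from their group, called 5 members for MI after NAC, 4 for MI after saline, 6 for MI averaged, 1 for NAC after sham (S100a10), 1 for NAC after MI (S100a13), 5 for NAC averaged and 0 for the interaction, beside 5.37%, 19.4%, 27.9%, 2.81%, 4.57%, 13.5% and 0.0% of all genes. Without saline sham 3, NAC sham 2 and NAC MI 2 the counts were 5, 3, 5, 1, 0, 1 and 0 in that order, beside 575, 1807, 2183, 418, 0, 328 and 6 of all genes. With only the 6 libraries of the comparison, MI after NAC called 0 members (S100a6 adjusted p = 0.177 in limma). Leaving out 1 library at a time gave 1 to 2 members for MI after NAC, 1 for MI after saline, 1 to 3 for MI averaged, 0 to 1 for NAC after sham, 0 to 1 for NAC averaged, and 0 for NAC after MI and the interaction. S100a6 was called in each of these for the MI comparisons and spanned 2.05 to 2.53 on the log2 scale after NAC and 2.07 to 2.41 after saline. The cause of the differences between settings was not tested. Across all genes, MI against sham averaged gave 411 calls in limma, 420 in edgeR and 1224 in DESeq2. After NAC the calls were 19, 28 and 241, and after saline 129, 91 and 464. No called difference of a member turned its sign. No paired analysis was possible because the labels give the groups no shared replicate numbers, and the title prefixes, which groups of the same surgery share in part, were used as a block among the MI libraries instead (0 members called).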

Other observations

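The ratio of S100a10 to Anxa2, genes whose products form 1 complex, was looked at after the values had been seen, along with that of the head-to-head pair S100a13 and S100a1. S100a10 over Anxa2 was 0.299, 0.307 and 0.406 in NAC MI, 0.298, 0.335 and 0.262 in NAC sham, 0.370, 0.354 and 0.374 in saline MI, and 0.342, 0.403 and 0.383 in saline sham. It averaged 0.318 ± 0.0489 over the NAC libraries and 0.371 ± 0.0216 over the saline libraries (SD, n = 6 each; exact permutation test within surgery, 400 arrangements, two-sided p = 0.04, adjusted p = 0.08 over 2 ratios). The 2 ratios were chosen among the pairs of members after the values had been seen, and the adjustment covers only these 2. The p-values are therefore a description. In 5 of the 6 NAC libraries it was below every saline library, with NAC MI 3 the exception. Within the prefix R230 the direction was reversed, with NAC MI 3 at 0.406 against 0.370 and 0.354 in saline MI 1 and 2. NAC sham 1 and 3 carried no prefix, and the arrangements took no account of prefixes. The 2 transcripts thus ran in parallel over the libraries while their proportion was lower in most NAC libraries, a difference that did not pass the adjustment. S100a13 over S100a1 averaged 0.194 ± 0.0985 over the NAC libraries and 0.238 ± 0.0407 over the saline libraries (exact permutation test, p = 0.19, adjusted p = 0.19), with NAC sham 2 at 0.392 and the other 5 NAC libraries at 0.132 to 0.187. The smallest p this design allows is 0.005.

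The share of reads from the mitochondrial genome was 21.7, 27.8 and 27.6% in NAC MI, 24.8, 15.4 and 17.8% in NAC sham, 30.2, 24.7 and 26.6% in saline MI, and 7.65, 13.6 and 27.7% in saline sham. Saline sham 3, with the highest S100a1, S100a10, S100a16 and Anxa2 levels of all libraries, had the highest share among the sham libraries.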
